A study of Mus musculus with 12 samples.

Results

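The mitochondrial genome of the mouse was measured as 37 genes, which were all the genes that the deposited gene table places on chromosome MT, out of 56748 genes in the table. They comprise 13 protein-coding genes, 2 ribosomal RNA genes and 22 transfer RNA genes, and all of them were followed across the 3 treatments and 12 libraries of the study. Of the 37, 23 passed the filter on low values and were tested. Those 23 were all 13 protein-coding genes, both ribosomal RNA genes and 8 transfer RNA genes. The other 14, all of them transfer RNA genes, had 0 reads in every library.

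Each library came from brain tissue of 1 adult mouse of the inbred C57BL/6 strain, with 2 females and 2 males per treatment. The LPS+DMA mice received lipopolysaccharide (LPS), the endotoxin of Gram-negative bacteria, at 0.5 mg/kg into the abdominal cavity once a day for 7 days. They also received N,N-dimethylacetamide (DMA), a small amide solvent found in drug formulations, by the same route each day, at a dose that the sources used here do not give. The LPS mice received LPS alone and the PBS mice received sterile phosphate-buffered saline on the same days. The labels name no genetic alteration in any group, and brains were taken on day 7. The series' title names an attenuation by DMA of the neuroinflammation that LPS induces. Each p-value of a treatment comparison sets 4 mice against 4, with a spread estimated from all 12 libraries together in the main fit. Tests between the sexes set 6 mice against 6. Tests of a sex difference in a response rest on 2 mice per sex and treatment.

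Mitochondrial DNA is a small circle that is transcribed from both strands as long precursors. Transfer RNAs sit between most of the other genes, and their excision releases the messenger and ribosomal RNAs, which are then polyadenylated within the mitochondrion. The proteins are core subunits of respiratory complexes I, III and IV and of ATP synthase (complex V), whose other subunits, like all of complex II, come from nuclear genes. In the brain these complexes supply most of the ATP that neurons use for ion pumping and synaptic transmission. Libraries here were made from RNA captured on poly-T beads, so a level reads the polyadenylated or captured part of each RNA.

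Depth was 27.5 to 41.4 M reads (M, megareads) per library, and 1288706 to 2065143 of them fell on mitochondrial genes. Levels are given as FPKM, a fragment count divided by gene length and by library size. Division by length lets genes be set side by side, with limits for genes that are short, overlap a neighbour or have a near-identical nuclear copy. The libraries did not all hold the same brain regions. Gabra6, which marks granule cells of the cerebellum, reached 114 FPKM in LPS female 1, 15.6 in LPS male 1, 90.5 in LPS male 2 and 74.6 in PBS female 1, and at 0 to 0.17 FPKM in the other 8 libraries. The 5 forebrain markers summed to 648 to 1115 FPKM in LPS+DMA brains, 17.7 to 796 in LPS brains and 447 to 714 in PBS brains. The 6 choroid plexus markers summed to 4.59 to 429 FPKM in LPS+DMA brains, 188 to 1803 in LPS brains and 3.07 to 338 in PBS brains. The part of these differences in any result below was not tested unless a value is given. In bulk tissue, fewer cells of a type and less RNA per cell cannot be told apart.

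Mitochondrial genes took a mean of 5.36% ± 0.283 of the recovered reads in LPS+DMA brains, 5.22% ± 0.503 in LPS brains and 5.06% ± 0.402 in PBS brains (SD, n = 4 each). The single libraries stood at 5.01%, 5.70%, 5.36% and 5.36% in LPS+DMA brains, 5.25%, 4.51%, 5.64% and 5.48% in LPS brains, and 4.91%, 4.56%, 5.45% and 5.32% in PBS brains, each in the order female 1, female 2, male 1, male 2. All 3 groups overlapped, and the differences between means, 0.135 percentage points for LPS+DMA minus LPS, 0.161 for LPS minus PBS and 0.296 for LPS+DMA minus PBS, were smaller than the spread within the LPS or the PBS brains. The protein-coding genes alone took 4.36% ± 0.327 in LPS+DMA brains, 4.56% ± 0.112 in LPS brains and 4.05% ± 0.340 in PBS brains. On that measure every LPS brain (4.44% to 4.68%) lay above every PBS brain (3.62% to 4.40%), and the LPS+DMA brains (3.98% to 4.64%) overlapped both. LPS female 2, at 4.51% in total, had 4.49% in protein-coding genes and 0.0111% in ribosomal RNA genes. No test was run on these shares.

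Mitochondrial transcripts were among the most abundant in these brains. Of the 9 genes with a mean of at least 1000 FPKM, 8 were mitochondrial, and the remaining one was Rn18s-rs5, a copy of nuclear 18S ribosomal RNA. mt-Co1, the catalytic subunit of cytochrome c oxidase (complex IV), had the highest median of the 13 protein-coding genes at 11118 FPKM and took 33.3% of all mitochondrial reads. It averaged 11933 ± 1012 FPKM in LPS+DMA brains, 11121 ± 235 in LPS brains and 10273 ± 868 in PBS brains (SD, n = 4 each). mt-Cytb, the cytochrome b of complex III, averaged 7263 ± 931, 6516 ± 187 and 6209.9 ± 457 FPKM in LPS+DMA, LPS and PBS brains, and mt-Nd1, a membrane subunit of complex I, averaged 6722 ± 541, 6301 ± 544 and 5669 ± 583 FPKM. mt-Cytb lay above mt-Nd1 in 10 of 12 libraries, and the ranges of both genes overlapped, so their order is not settled by these libraries.

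The next 3 genes encode further complex I subunits of the proton-pumping membrane arm. mt-Nd2 averaged 3326 ± 364 FPKM in LPS+DMA brains, 3327 ± 263 in LPS brains and 2899.8 ± 204 in PBS brains, and mt-Nd4 averaged 3109.9 ± 258, 2879.9 ± 198 and 2624 ± 261 FPKM. mt-Nd2 lay above mt-Nd4 in all 12 libraries although the ranges of the genes overlapped. mt-Nd5 followed at a median of 2216 FPKM and lay below mt-Nd4 in 11 of 12 libraries. mt-Nd6, a complex I subunit and the only protein-coding gene on the minus strand of the annotation, averaged 545 ± 62.1 FPKM in LPS+DMA brains, 457 ± 24.8 in LPS brains and 393 ± 73.7 in PBS brains (SD, n = 4 each). Its level was 0.199 of that of mt-Nd5 on average over the 12 libraries, with a range from 0.172 to 0.216.

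The remaining 6 protein-coding genes stood far lower. mt-Co2, the complex IV subunit that accepts electrons from cytochrome c, averaged 150.1 ± 18.1, 139.9 ± 6.63 and 129 ± 11.2 FPKM in LPS+DMA, LPS and PBS brains, against at least 9285 FPKM for its partner subunit mt-Co1 in any library. mt-Co3, the remaining mitochondrial subunit of complex IV, averaged 84.98 ± 16.3, 94.4 ± 9.13 and 84.5 ± 9.68 FPKM, and mt-Atp6, the proton channel subunit of ATP synthase, averaged 101 ± 37.0, 91.5 ± 7.33 and 79.3 ± 3.71 FPKM. mt-Co3 lay above mt-Atp6 in 6 of 12 libraries, so these neighbours had no fixed order. The complex I subunits mt-Nd3 and mt-Nd4l averaged 77.1 ± 8.28 and 24.6 ± 6.7 FPKM in LPS+DMA brains, 85.9 ± 11.4 and 37.6 ± 10.6 in LPS brains, and 62.8 ± 15.3 and 24.0 ± 3.06 in PBS brains. mt-Atp8, a small ATP synthase subunit whose gene overlaps the start of mt-Atp6, averaged 3.9 ± 1.27, 3.3 ± 0.605 and 2.37 ± 0.922 FPKM, from 263 reads in all 12 libraries together.

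**Figure D1:**
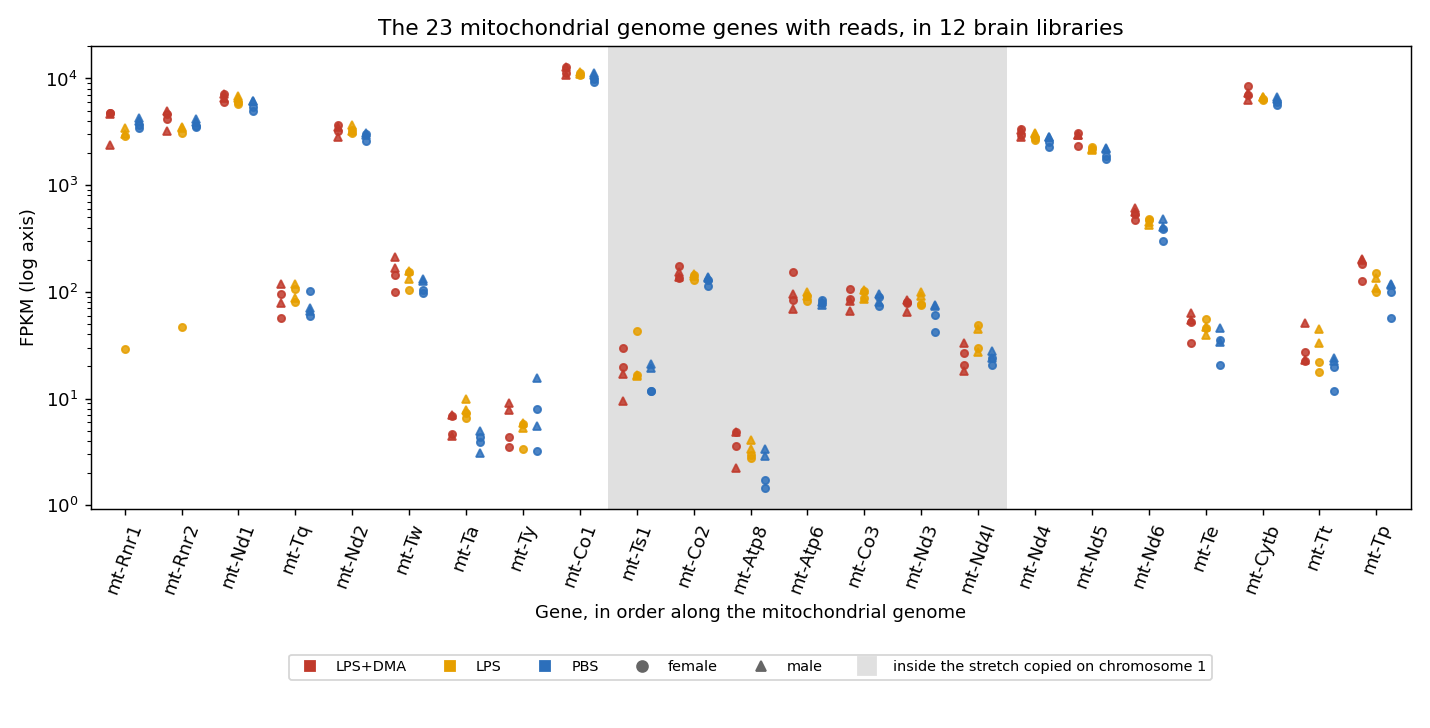
FPKM of the 23 mitochondrial genes with reads, on a log axis, in every LPS+DMA, LPS and PBS library (circles female, triangles male), in order along the mitochondrial genome, with grey for genes wholly inside the stretch copied on chromosome 1. mt-Co1 stands highest at a median of 11118 FPKM, the grey run from mt-Ts1 to mt-Nd4l reaches 174 FPKM at most, and LPS female 2 stands apart at both ribosomal RNA genes.

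The 6 low protein-coding genes are neighbours, and they lie in a stretch that the nuclear genome holds in near-identical copy. On the minus strand of chromosome 1, 7 predicted genes (GRCm39, 24650616 to 24655278) matched MT 6381 to 11042, a block of 4662 bases that runs from inside mt-Co1 to inside mt-Nd4. Within this block lie the whole of mt-Co2 (MT 7013 to 7696), mt-Atp8 (7766 to 7969), mt-Atp6 (7927 to 8607), mt-Co3 (8607 to 9390), mt-Nd3 (9459 to 9806) and mt-Nd4l (9877 to 10173). In 5 of the 7 copies every aligned base was identical to the mitochondrial gene, over 681 bases for mt-Co2, 678 for mt-Atp6, 783 for mt-Co3, 294 for mt-Nd4l and 876 for the start of mt-Nd4. The remaining pairs are shown because they hold the substitutions found between a gene and its annotated copy. Bases of the block outside the annotated copies were not aligned, so further differences may exist there. The matched positions of mt-Nd4l and mt-Nd4 were shifted by 1 base from those of the other genes. mt-Nd3 and its copy Gm28438 were identical at 344 of 345 bases and differed by T3C, with the mitochondrial base first and positions counted from the first base of the gene. mt-Co1 and Gm29216 were identical at 486 of 492 bases and differed by T1056A, C1057T, A1059G, A1060G, C1062A and A1066T. Capitals mark the bases that differ, in the first 90 bases of each aligned stretch, each written along its own gene's strand.
mt-Nd3 (MT plus strand, from base 1): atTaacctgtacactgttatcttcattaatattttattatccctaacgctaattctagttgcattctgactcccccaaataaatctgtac
Gm28438 (chromosome 1 minus strand, from base 1): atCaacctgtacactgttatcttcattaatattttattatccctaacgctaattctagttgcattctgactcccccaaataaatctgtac
mt-Co1 (MT plus strand, from base 1054): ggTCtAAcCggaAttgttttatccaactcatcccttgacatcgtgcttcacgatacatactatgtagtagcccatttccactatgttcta
Gm29216 (chromosome 1 minus strand, from base 1): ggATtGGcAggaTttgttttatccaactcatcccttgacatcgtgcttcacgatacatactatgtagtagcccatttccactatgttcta

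The split by the block was complete among the protein-coding genes. The 6 genes wholly inside it lay between 1.47 and 174 FPKM in any library, and the 5 outside it (mt-Nd1, mt-Nd2, mt-Nd5, mt-Nd6 and mt-Cytb) between 300.3 and 8525 FPKM. The 2 genes that cross its edges, mt-Co1 and mt-Nd4, lay between 2302 and 12815 FPKM. The share of 50-base windows of a gene that also occur in a nuclear transcript was 100% for mt-Co2, 99.9% for mt-Co3, 99.5% for mt-Atp6, 98.8% for mt-Nd4l and 98.0% for mt-Nd3, against 62.2% for mt-Nd4, 51.1% for mt-Co1, 8.19% for mt-Nd2 and 7.61% for mt-Nd5, and 0% for mt-Nd1, mt-Nd6 and mt-Cytb. It was also 0% for mt-Atp8, which has no annotated copy of its own. The end of mt-Atp8 that overlaps mt-Atp6 (MT 7927 to 7969) does lie in Gm10925, the mt-Atp6 copy, but is shorter than the 50-base window. The sources used here do not say how reads that match both places were counted, so the levels of these 6 genes, and of the tRNA genes in the block, are uncertain, and levels on either side of its edges may not be comparable.

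The copies themselves carried reads in similar amounts to the genes inside the block. Gm28661, the mt-Co2 copy, stood at a median of 1.11 times the FPKM of mt-Co2, and the copies of mt-Atp6, mt-Co3, mt-Nd4l and mt-Nd3 at 2.12, 1.33, 1.45 and 0.605 times their genes. The copies of mt-Co1 and mt-Nd4 stood at 0.0207 and 0.0180 times. The ratio was not constant between libraries. For mt-Co2 it was 4.09 in LPS male 2, where Gm28661 reached 576 FPKM, and 1.02 to 1.29 in the other 11 libraries. For mt-Nd4l it was 0.594 in LPS female 1 and 0.837 in LPS male 2, and 1.18 to 1.81 in the other 10. None of the 7 copies was called in LPS+DMA against LPS in limma or voom, where 9.67% of all genes were called in limma, and none had an unadjusted p under 0.05. The same held in the other 2 treatment comparisons, where only 0.0102% of all genes were called, so a count of 0 of 7 says little there.

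The transfer RNA genes carried few reads. They took 0.00314% ± 0.000658 of all reads over the 12 libraries (SD), and mature transfer RNA is not the target of bead selection for poly(A). mt-Tw, the tryptophan transfer RNA, and mt-Tp, the proline one, had the highest medians at 132 and 123 FPKM, followed by mt-Tq (glutamine) at 83.9, mt-Te (glutamate) at 46.0, mt-Tt (threonine) at 22.6 and mt-Ts1 (serine) at 16.8. mt-Ta (alanine) and mt-Ty (tyrosine) stood at 5.73 and 5.64 FPKM, from 168 and 180 reads in all libraries together. By counting error alone, a count of 0, as in the other 14, allows up to 3 reads in a library. That floor does not cover reads that the counting may not have assigned to these genes, so it sets no limit on their RNA.

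Which transfer RNA genes had reads followed their place on the map, a pattern chosen after the values were seen. Reads fell on 6 of the 8 transfer RNA genes of the minus strand and on 2 of the 14 of the plus strand. All 8 with reads had a side on which no gene of the same strand lay within 100 bases, the smallest measured gap being 311 bases. Of the 14 without reads, 13 had neighbours on both sides at most 70 bases away, and the exception was mt-Tf at the first base of the annotation. Sequences of 3 with reads and then 2 without are shown to let the overlaps be seen, with capitals for bases that also belong to a neighbouring gene on either strand.
mt-Tp (MT 15356 to 15422, minus): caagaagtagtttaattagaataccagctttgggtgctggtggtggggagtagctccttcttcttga
mt-Tw (MT 4950 to 5016, plus): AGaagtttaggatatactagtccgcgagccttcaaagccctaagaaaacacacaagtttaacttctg
mt-Tq (MT 3772 to 3842, minus): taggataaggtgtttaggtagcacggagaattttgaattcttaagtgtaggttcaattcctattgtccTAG
mt-Ti (MT 3706 to 3774, plus): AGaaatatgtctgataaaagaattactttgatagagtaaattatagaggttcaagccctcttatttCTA
mt-Tf (MT 1 to 68, plus): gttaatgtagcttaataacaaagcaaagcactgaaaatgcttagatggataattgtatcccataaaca
mt-Tq and mt-Ti lie on opposite strands and share the capitals that close each sequence, while the opening AG of mt-Ti is shared with mt-Nd1. mt-Tq had 2536 reads in all libraries against 0 for mt-Ti. Whether the libraries kept strand is not settled by the labels, so reads of a gene and of RNA from the opposite strand may not be told apart.

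The ribosomal RNAs set 1 library apart from the other 11. mt-Rnr1, the 12S RNA of the small mitochondrial ribosomal subunit (ENSMUSG00000064337, MT 70 to 1024), stood at 4766, 4720.2, 2355 and 4643 FPKM in LPS+DMA brains, 2874, 29.1, 3400.4 and 3023 in LPS brains, and 3457, 3679, 4002 and 4270.2 in PBS brains. LPS female 2 was the low one, and the lowest of the other 11 libraries was 81.0-fold higher. mt-Rnr2, the 16S RNA of the large subunit (ENSMUSG00000064339, MT 1094 to 2675), stood at 4156, 4616, 3239 and 4954 FPKM in LPS+DMA brains, 3096, 46.5, 3527 and 3408 in LPS brains, and 3599, 3529, 3904 and 4161 in PBS brains. The lowest of the other 11 was 66.6-fold higher than LPS female 2. Nuclear 18S RNA was low in the same library, with Rn18s-rs5 at 191 FPKM in LPS female 2 and 16022 to 58440.0 in the others. The protein-coding genes of LPS female 2 did not share this, as mt-Co1 stood at 10824 FPKM there and at 11107 to 11397 in the other LPS brains.

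**Figure D2:**
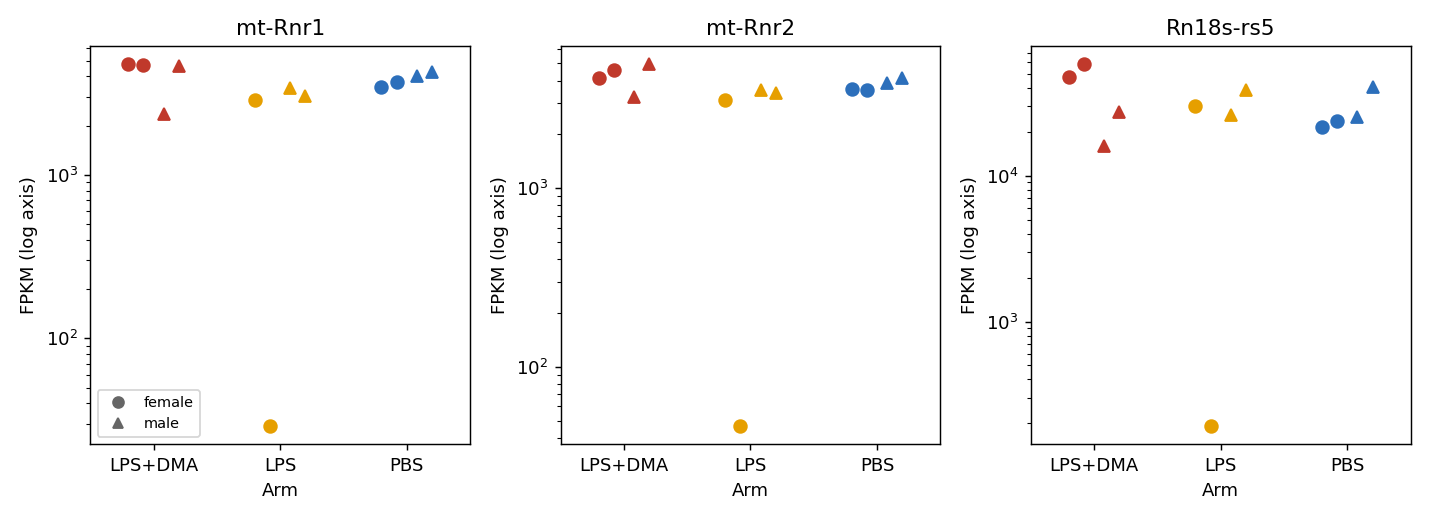
FPKM of mt-Rnr1, mt-Rnr2 and nuclear Rn18s-rs5 on log axes, 1 point per library (circles female, triangles male), by treatment. LPS female 2 lies at 29.1, 46.5 and 191 FPKM, below all other libraries, and LPS+DMA male 1 lies at 2355 FPKM for mt-Rnr1.

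Among the LPS+DMA brains, male 1 was low in mt-Rnr1, at 2355 FPKM against 4643 to 4766 in the other 3. The ratio of mt-Rnr1 to mt-Rnr2 was 0.727 in that library, 0.625 in LPS female 2, and 0.887 to 1.15 in the other 10. LPS+DMA male 1 also had the lowest level of each of the 4 microglial markers, with Cx3cr1, a microglial receptor, at 0.88 FPKM. The 4 microglial markers summed to 12.1 to 36.9 FPKM in LPS+DMA brains, 38.2 to 64.8 in LPS brains and 31.1 to 38.8 in PBS brains. The 4 astrocyte markers summed to 251 to 313 FPKM in LPS+DMA brains, 315 to 562 in LPS brains and 284 to 405 in PBS brains. The part of these levels in the low mt-Rnr1 of LPS+DMA male 1 was not tested.

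The comparison of LPS+DMA with LPS sets mice given LPS and DMA against mice given LPS alone. Brain region differed between these groups as well. Gabra6 stood at 114, 15.6 and 90.5 FPKM in LPS female 1, LPS male 1 and LPS male 2, and at 0 to 0.17 in LPS+DMA brains. DMA and brain region can therefore not be fully told apart here. One mitochondrial gene of the 23 was called, mt-Nd5, and it rose. Over all 19571 genes tested, 9.67% were called (5.79% higher and 3.88% lower) at a Benjamini-Hochberg adjusted p under 0.05 in limma, so 1 of 23 is below the background share. That background depends on single libraries. Its 1892 called genes became 11, 7 and 22 without LPS female 1, LPS male 1 or LPS male 2. In all, 4 mitochondrial genes had an unadjusted p under 0.05, as did 28.4% of all genes, so that share too was below the background. The 23 changes had a median of 0.09 on the log2 scale and 16 were positive, against a median of 0.01 over all genes.

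mt-Nd5 encodes a large complex I subunit of the membrane arm (ENSMUSG00000064367, MT 11742 to 13565). It stood at 2344, 3051, 2969.9 and 2948 FPKM in LPS+DMA brains, against 2169.9, 2289.9, 2124 and 2189 in LPS brains. In PBS brains it stood at 1878, 1742, 2199 and 2232 FPKM. Every LPS+DMA brain lay above every LPS and every PBS brain, although LPS+DMA female 1 was only slightly higher than LPS female 2. Among all genes tested, 6.26% had all 4 LPS+DMA libraries above all 4 LPS libraries, and 5.98% had all 4 below, which held for none of the 23. The means were 2828 ± 326 FPKM in LPS+DMA brains and 2193 ± 69.9 in LPS brains (SD, n = 4 each), a ratio of 1.29. The log2 change was 0.36 (SE 0.10, limma, Benjamini-Hochberg adjusted p = 0.0453).

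This call was close to the threshold and was lost when any of 10 of the 12 libraries was left out, with adjusted p of 0.0515 to 0.143. It remained only without LPS+DMA female 1 or without LPS female 2. As a share of the reads of the 13 protein-coding genes, which does not depend on how libraries were scaled, mt-Nd5 took 9.86%, 10.9%, 11.3% and 12.1% in LPS+DMA brains, 9.47%, 10.1%, 9.01% and 8.98% in LPS brains, and 9.08%, 9.08%, 9.56% and 9.72% in PBS brains. On this scale LPS+DMA female 1 lay below LPS female 2, and the other 3 LPS+DMA brains lay above all LPS and PBS brains. Without the 4 libraries with cerebellar signal, where LPS is represented by female 2 alone, the change was 0.18 (adjusted p = 1.00).

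**Figure D3:**
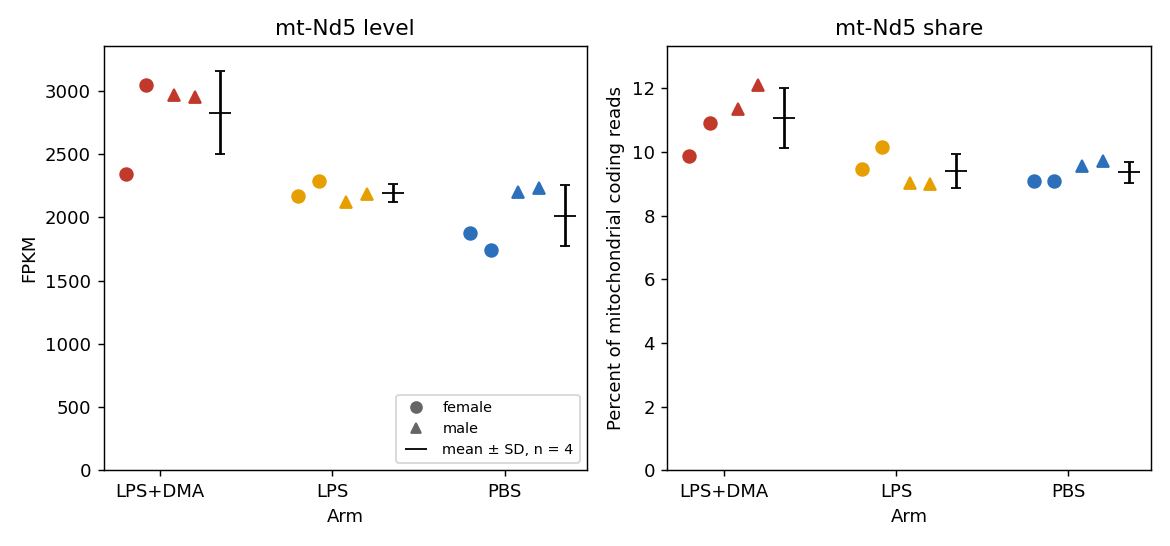
mt-Nd5 in each library as FPKM and as percent of the reads of the 13 mitochondrial protein-coding genes, by treatment, with the mean and SD of 4 libraries as bars. In FPKM the LPS+DMA brains (2344 to 3051) lie above the LPS brains (2124 to 2289.9), and as a share of coding reads LPS+DMA female 1 (9.86%) lies below LPS female 2 (10.1%).

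The other complex I genes did not pass the test against LPS alone. mt-Nd6, which shares a few bases with mt-Nd5 on the opposite strand, stood at 467, 536, 561 and 617 FPKM in LPS+DMA brains and at 469, 481, 424 and 454 in LPS brains. LPS+DMA female 1 lay inside the LPS range and the other 3 above it (log2 change 0.25, SE 0.13, adjusted p = 0.216). mt-Nd4l stood at 20.6, 26.7, 18.0 and 33.0 FPKM in LPS+DMA brains and at 48.7, 29.6, 27.5 and 44.6 in LPS brains. The groups overlapped, with LPS female 1 and LPS male 2 the highest (log2 change -0.59, SE 0.22, adjusted p = 0.112). The ratio of the nuclear copy to mt-Nd4l was lowest in the same libraries, but mt-Nd4l is its divisor, so a high mt-Nd4l lowers it by itself. The copy, Gm10222, stood at 28.9 FPKM in LPS female 1 and 37.3 in LPS male 2, beside a median of 36.6 over all libraries. mt-Nd1, mt-Nd2, mt-Nd3 and mt-Nd4 had log2 changes of 0.09, 0.00, -0.15 and 0.11.

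For complexes III, IV and V the log2 changes of LPS+DMA against LPS lay close to 0 and none passed. They were 0.15 for mt-Cytb, 0.10 for mt-Co1, 0.09 for mt-Co2, -0.16 for mt-Co3, 0.08 for mt-Atp6 and 0.16 for mt-Atp8. mt-Atp6 stood at 83.6, 154, 96.2 and 69.5 FPKM in LPS+DMA brains and 91.3, 82.6, 91.5 and 101 in LPS brains. LPS+DMA female 2 was the high one, and it was also the library with the lowest ratio of the nuclear copy to mt-Atp6, 1.39. mt-Atp6 is the divisor of this ratio, so a high mt-Atp6 lowers it by itself. The copy, Gm10925, was also at its highest in that library, at 214 FPKM, beside a median of 184.

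Among the transfer RNA genes mt-Tp stood at 126, 182, 201 and 205 FPKM in LPS+DMA brains and at 150.1, 100.03, 108 and 134 in LPS brains. LPS+DMA female 1 lay within the LPS range and the other 3 above it (log2 change 0.53, SE 0.21, adjusted p = 0.129). mt-Ta, at 4.67, 6.85, 7.08 and 4.46 FPKM in LPS+DMA brains and 7.27, 6.51, 9.89 and 7.77 in LPS brains, had a log2 change of -0.40 (adjusted p = 0.166) and the groups overlapped. The ribosomal RNAs had positive values of 2.03 for mt-Rnr1 (SE 1.17, adjusted p = 0.280) and 1.86 for mt-Rnr2 (SE 1.05, adjusted p = 0.270). Without LPS female 2 these were 0.34 (adjusted p = 0.323) and 0.34 (adjusted p = 0.122).

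The sign of the remaining small changes depended on the scaling of the libraries. The deposited FPKM were scaled to library sizes of 30.1 M on average in LPS+DMA brains and 35.6 M in LPS brains, where the recovered totals averaged 32.2 M in LPS+DMA brains and 33.3 M in LPS brains. With plain scaling to recovered read totals, 7 of the 23 changes were positive and their median was -0.10, beside a median of -0.11 over all genes. mt-Nd5 was then 0.17 higher on the log2 scale (adjusted p = 0.293), and mt-Nd4l was called lower at -0.78 (adjusted p = 0.0351).

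**Figure D4:**
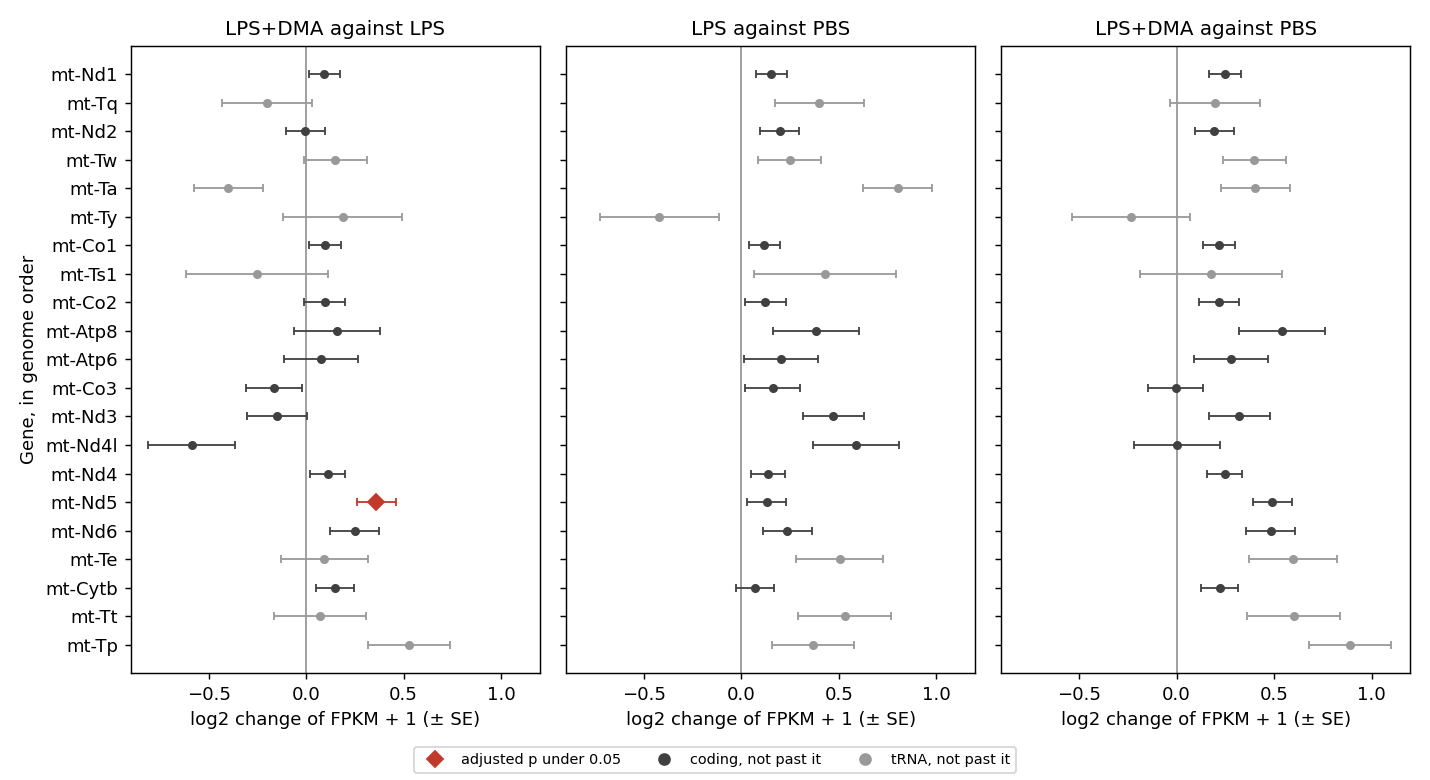
Log2 change of FPKM + 1, with its standard error, for the 13 protein-coding and 8 transfer RNA genes tested, in LPS+DMA against LPS, LPS against PBS and LPS+DMA against PBS. The red diamond, mt-Nd5 in LPS+DMA against LPS (0.36), is the only one past the adjusted threshold; mt-Rnr1 and mt-Rnr2, with standard errors of 1.17 and 1.05, are not drawn.

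The comparison of LPS with PBS sets mice given LPS for 7 days against mice given saline. Brain region differed here too, with Gabra6 at 74.6 FPKM in PBS female 1 and at 0 in the other PBS brains. LPS and brain region can therefore not be fully told apart. None of the 23 mitochondrial genes was called in limma, against 2 of 19571 genes overall (0.0102%), and 5 had an unadjusted p under 0.05, as did 10.96% of all genes. With voom on the recovered reads 0 were called and 3 had an unadjusted p under 0.05. All 13 protein-coding genes had a positive change, with a median of 0.16 and a range from 0.07 for mt-Cytb to 0.59 for mt-Nd4l. mt-Nd3 stood at 77.4, 75.7, 90.5 and 99.8 FPKM in LPS brains and at 61.2, 41.8, 73.2 and 75.0 in PBS brains. The groups did not overlap, by a margin of less than 1 FPKM (log2 change 0.47, SE 0.16, adjusted p = 0.324).

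mt-Ta had the smallest p of the 23 genes against PBS. It stood at 7.27, 6.51, 9.89 and 7.77 FPKM in LPS brains and at 4.34, 3.93, 3.09 and 4.95 in PBS brains, from 8 to 26 reads per library. Every LPS brain lay above every PBS brain (log2 change 0.80, SE 0.18, adjusted p = 0.218), and mt-Ta was called without LPS female 2 (0.87, adjusted p = 0.0368). Along with mt-Nd2, mt-Nd3 and mt-Ta were 3 of 23 genes with all 4 LPS libraries above all 4 PBS libraries, which held for 3.59% of all genes. mt-Rnr1 and mt-Rnr2 had all 4 LPS libraries below all 4 PBS libraries, which held for 3.3% of all genes. Their log2 changes were -1.98 (SE 1.17, adjusted p = 0.568) and -1.72 (SE 1.05, adjusted p = 0.582), and without LPS female 2 they were -0.30 and -0.19.

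The comparison of LPS+DMA with PBS shares its libraries with both others. None of the 23 genes was called in limma, against 0.0102% of all genes, 12 had an unadjusted p under 0.05, as did 11.4% of all genes, and voom called 0 with 7 under that unadjusted threshold. Of the 13 protein-coding genes 12 had a positive change and the median was 0.25. mt-Nd5 had a log2 change of 0.49 (SE 0.10, adjusted p = 0.290), its mean being 2828 ± 326 FPKM in LPS+DMA brains and 2013 ± 241 in PBS brains. mt-Tp stood at 126, 182, 201 and 205 FPKM in LPS+DMA brains and at 99.6, 57.0, 116 and 119 in PBS brains, without overlap (log2 change 0.89, SE 0.21, adjusted p = 0.323). mt-Nd5 and mt-Tp were the 2 genes with all 4 LPS+DMA libraries above all 4 PBS libraries, as were 3.71% of all genes, and none of the 23 lay wholly below PBS, as did 2.93% of all genes. With plain scaling to recovered read totals the median over the 23 genes was 0.10, while that over all genes was -0.10.

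Between the sexes no mitochondrial gene was called in limma, against 7 of all genes (0.0358%, with 0.0153% higher and 0.0204% lower in females), and 4 of the 23 had an unadjusted p under 0.05, as did 9.02% of all genes. The changes of females against males were negative for 20 of the 23 and had a median of -0.07 among the 13 protein-coding genes. Without LPS female 2, 18 of 23 were negative. Mitochondrial genes took 4.99% ± 0.445 of the reads in females and 5.44% ± 0.119 in males (SD, n = 6 each). mt-Tt had the smallest p, at -0.65 (SE 0.19, adjusted p = 0.458). No gene of the table was called for a difference between sexes in its response in limma, and 0, 1 and 3 mitochondrial genes had an unadjusted p under 0.05 in LPS+DMA against LPS, LPS against PBS and LPS+DMA against PBS, beside 5.15%, 2.51% and 5.67% of all genes.

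The nuclear partners of the mitochondrial subunits had mostly negative changes in LPS+DMA against LPS. Of 76 nuclear subunits of complexes I to V, 10 fell, against 3.88% of all genes, 0 rose, and 75 had a negative change. Their median was -0.34, where the 13 mitochondrial subunits had a median of 0.09 with 9 positive. By complex, 6 of 36 fell in complex I, 0 of 4 in complex II, 0 of 9 in complex III, 1 of 11 in complex IV and 3 of 16 in complex V. Ndufs5 and Ndufb8, accessory subunits of complex I, fell by 0.55 each (adjusted p = 0.0218 and 0.0231), Cox7b of complex IV fell by 0.68 (adjusted p = 0.0310), and Atp5g1 and Atp5j2 of complex V fell by 0.56 and 0.60 (adjusted p = 0.0304 and 0.0357). The count of 10 was 0 without LPS female 1, LPS male 1 or LPS male 2, the LPS libraries with cerebellar signal, and 3 to 28 without any other single library (28 without LPS female 2, 21 without LPS+DMA male 1, 3 without LPS+DMA female 2 or PBS male 2). Calls over all genes in both directions moved as well, from 1892 to 3465 without LPS female 2 and 1506 without LPS+DMA male 1. They were 1071 without LPS+DMA female 2 and 1052 without PBS male 2. With plain scaling to read totals 53 were called lower, where the median change over all genes was -0.11. The share of all genes called lower under that scaling is not given here, and 3.88% belongs to the main fit. Without the 4 libraries with cerebellar signal 0 of the 76 were called and their median was -0.12, with 64 negative. With the forebrain against cerebellum level as a covariate 0 were called and the median was -0.21. The mitochondrial subunits had a median of 0.11 without the cerebellar libraries and with that covariate, and of -0.10 with plain scaling.

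Summed FPKM of the 13 mitochondrial subunits divided by that of the 76 nuclear subunits was 5.62, 6.97, 6.06 and 8.58 in LPS+DMA brains, 4.62, 5.23, 5.16 and 5.15 in LPS brains, and 4.96, 4.59, 5.58 and 5.58 in PBS brains. Every LPS+DMA brain lay above every other brain, LPS+DMA female 1 by the least and LPS+DMA male 2 by the most, and no test was run on this ratio, which was chosen after the values were seen. The nuclear sum was 5996, 5686, 6084 and 4018 FPKM in LPS+DMA brains, 7044, 6117, 6512 and 6772 in LPS brains, and 5931, 5925, 5840 and 5848 in PBS brains. In LPS against PBS 0 of the 76 were called in limma or voom, 5 had an unadjusted p under 0.05 in each, and 75 were positive (median 0.18), and without the cerebellar libraries 48 were negative (median -0.03). In LPS+DMA against PBS 0 were called in either, 8 in limma and 7 in voom had an unadjusted p under 0.05, and 68 were negative (median -0.13).

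**Figure D5:**
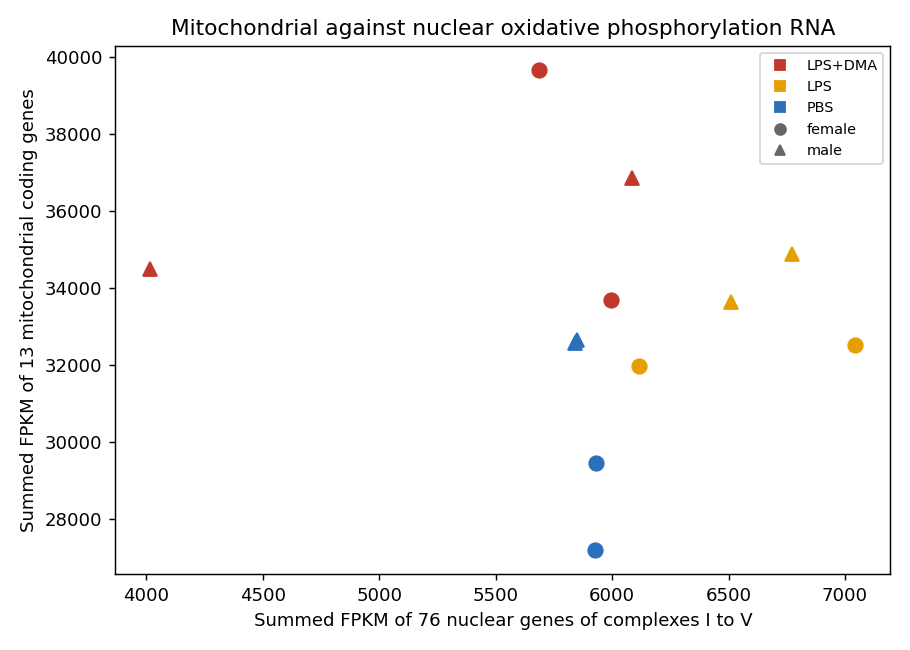
Summed FPKM of the 13 mitochondrial coding genes against summed FPKM of the 76 nuclear subunits of complexes I to V, 1 point per library, with axes that do not start at 0. LPS+DMA brains, with ratios of 5.62 to 8.58, lie above the PBS brains and to the left of the LPS brains. LPS+DMA female 1 and male 1, at nuclear sums of 5996 and 6084 FPKM, lie to the right of the PBS brains. LPS brains lie furthest to the right, with nuclear sums of 6117 to 7044 FPKM, and LPS+DMA male 2 lies apart at a nuclear sum of 4018 FPKM.

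For the nuclear genes that make, process and translate mitochondrial RNA, the counts of LPS+DMA against LPS stand beside 5.79% of all genes called higher and 3.88% called lower, and none of them is read as a result about its list. In limma none of 19 genes of mitochondrial DNA transcription and replication was called (median -0.12, 5 with an unadjusted p under 0.05). With voom 1 of them was called lower. The shares above are from limma, and the share of all genes that voom called is not given here. None of 9 translation factors was called by either (median -0.17, 1 under the unadjusted threshold). Of 18 genes of mitochondrial RNA processing and turnover 1 fell, Hsd17b10, a subunit of mitochondrial ribonuclease P, by 0.65 (adjusted p = 0.0265). Of 30 genes of transfer RNA modification and charging 1 rose, Trit1, which isopentenylates transfer RNAs, by 0.70 (adjusted p = 0.0339). Of 77 mitochondrial ribosomal protein genes tested 4 fell and the median was -0.18, with Mrps6 falling by 1.00 (adjusted p = 0.0172).

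Genes that gauge the amount or turnover of mitochondria had list medians between -0.35 and 0.00 in LPS+DMA against LPS, and their counts stand beside the same shares of all genes, 5.79% higher and 3.88% lower. Of 10 genes used as markers of mitochondrial mass 1 rose, Tomm20, an import receptor of the outer membrane, by 0.45 (adjusted p = 0.0363), and the median of the list was -0.03. Of 11 genes of mitochondrial dynamics and mitophagy 1 fell, Fundc1, a mitophagy receptor, by 0.66 (adjusted p = 0.0463), with a median of -0.03. None of 8 regulators of mitochondrial biogenesis was called in limma or voom (median 0.00, 1 with an unadjusted p under 0.05). None of 5 measured sensors of mitochondrial nucleic acids was called in limma (median -0.35, 3 with an unadjusted p under 0.05). With voom 2 of them were called lower, but the shares above are from limma. The share of all genes that voom called is not given here, so these 2 are not read as a result. In LPS against PBS and in LPS+DMA against PBS no gene of any of these lists was called in limma or voom, and 0 to 2 and 0 to 9 genes per list had an unadjusted p under 0.05 in limma. Over all genes, the 1892 calls of LPS+DMA against LPS became 11, 7 and 22 without LPS female 1, LPS male 1 or LPS male 2.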

How the data were processed

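FPKM for 12 brain libraries were deposited by the authors in 1 gene table, with gene names, GRCm39 coordinates and gene lengths. Per the submitters' processing notes HISAT2 2.2.1, STAR, featureCounts 2.0.6, fastp, edgeR 4.0.16, DESeq2 1.42.0 and GATK were used, in roles that are not stated. Per the labels' protocols, messenger RNA was selected on poly-T beads, and library preparations with and without strand marking are described, without saying which was used. The counting of reads that match several places is not stated there.

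FPKM times gene length gave whole reads (tolerance 0.1) for 100% of the values checked, up to 1000 reads, which served for depth, shares and an alternative with voom. Intervals and floors cover counting error only. Genes with at least 0.5 FPKM in at least 2 libraries (19571) were tested as log2(FPKM + 1), a scale that understates changes of low genes, in limma 3.58.1 (R 4.3.3), with treatment and sex as terms, variances that follow the mean and robust moderation, and Benjamini-Hochberg adjustment over all genes. The code recovered changes put into simulated data. Same-numbered mice of different treatments showed correlations of -0.07 to 0.45 within a sex, so numbers were not taken as pairs.

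All 37 members are accounted for by rule, and list genes are named by smallest p. Members, lists and tests were chosen with earlier results of these data known. Alternatives covered the pseudocount, filter, scaling, variance model, terms, libraries and, added after the data were seen, sums with the chromosome 1 copies and settings of the nuclear subunits. Sequences are GENCODE M21 transcripts (GRCm38) matched by gene identifier, 37 of 37 with the length in the table, read with Python 3.11.15, pandas 2.3.3 and Biopython 1.88. Plots were drawn with matplotlib 3.10.9.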

Additional observations from a re-analysis of the deposited data

Results flagged for a closer look

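Within groups of 4 libraries, 81 sets of values of the mitochondrial genes and their shares were checked for a library far from the other 3, and 6 exceeded the 95% critical value of Dixon's test, where chance alone gives about 1 in 20. In LPS female 2, mt-Rnr1 stood at 29.1 FPKM against 2874 to 3400.4 in the other LPS brains, and mt-Rnr2 at 46.5 against 3096 to 3527. The mitochondrial ribosomal RNA share of that library was 0.0111% against 0.812% to 0.961%. mt-Ts1 was highest in the same library, at 43.2 FPKM against 16.3 to 16.7. mt-Rnr1 was lowest in LPS+DMA male 1, at 2355 FPKM against 4643 to 4766. mt-Nd5 was lowest in LPS+DMA female 1, at 2344 FPKM against 2948 to 3051.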

How the results depend on the processing

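Of 2024 single-gene values recomputed under other settings, 1921 kept both their direction and their side of the threshold, 78 uncalled ones turned sign, and 0 called ones reversed. The count of 1 mitochondrial gene called in LPS+DMA against LPS became 0 without a filter, with scaling to nuclear reads, with plain variances, with those 2 treatments alone, without the sex term, with the replicate block and with the forebrain covariate. The replicate block gave mt-Nd5 an adjusted p of 0.0542. Leaving out 1 library gave 0 to 1. Without the 4 cerebellar libraries it became 2 (mt-Rnr1 at 7.16 and mt-Rnr2 at 6.46, both against LPS female 2 alone). mt-Nd5 was positive in all 25 settings (0.17 to 0.43) and called in 6 (adjusted p 0.0253 to 1.00). In LPS against PBS the count of 0 became 2 without the cerebellar libraries (mt-Rnr1 at -7.21 and mt-Rnr2 at -6.34), and 0 to 1 with 1 library left out. For LPS+DMA against PBS the treatment count was 0 in every setting run. The test of a sex difference, 0 in all 3 comparisons, gave 0 to 2, 0 to 2 and 0 to 1 with 1 library left out (LPS+DMA against LPS, LPS against PBS, LPS+DMA against PBS). The 10 nuclear subunits called lower became 53 with plain scaling, 0 without the cerebellar libraries or with the forebrain covariate, and 0 to 28 with 1 library left out. Calls over all genes, 1892 in the main fit, ranged from 7 to 3465 with 1 library left out and are not given here for plain scaling. The cause of these changes was not tested beyond the values given. Depth limits mt-Ta, mt-Ty and mt-Atp8, which rest on 168 to 263 reads.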
